A study of Mus musculus with 2 samples.

Results

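The AP-1 family was described across the neuronal nuclei of the ultrasound-targeted preoptic area (POA) of mice. The 7 members were taken by gene symbol, namely Fos, Fosb, Fosl2, Jun, Junb, Jund and Atf3, and all 7 had a row among the 32285 genes of both matrices. Single-nucleus RNA-sequencing was carried out on 1 library per condition. US+ nuclei came from wild-type mice killed about 1 h after ultrasound stimulation, and US- nuclei came from wild-type sham mice. Each library pooled nuclei of 4 mice of 6 to 9 weeks, sorted for the neuronal protein NeuN, and the methods name C57BL/6NCrl mice of both sexes for the first ultrasound experiments without naming the strain for these libraries. With 1 library per condition there is no replicate check and no test, so every ratio below compares these libraries, and every 95% interval covers counting error only. The mice of a library cannot be told apart.

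AP-1 is a dimer of a Fos-family and a Jun-family protein, which join through a leucine zipper and bind DNA through the basic region beside it. Fos, Fosb and Junb are immediate early genes, transcribed within minutes of calcium entry or growth factor signalling without new protein synthesis, and Fos RNA or protein is widely used to mark recently active neurons. Jund is present in resting cells. Fosl2 (Fra-2) encodes another Fos-family partner, Jun (c-Jun) the founding Jun protein, and Atf3 a related basic leucine zipper factor known for its response to injury and stress.

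Nuclei with 200 to 7500 genes and at most 5% mitochondrial UMIs (unique molecular identifiers, 1 per captured RNA molecule) were kept, 11899 in US+ and 11663 in US-. Their median depth was 6440 UMIs in US+ and 7334 UMIs in US-, and 10.8% of US+ nuclei and 3.12% of US- nuclei held fewer than 1000 UMIs. Of the cell barcodes, 29 occurred in both libraries, and 13 of these fell in the same class in both. Nuclei were classed by marker UMIs. Striatal-type nuclei had at least 2 UMIs of Rarb and at least 1 of the dopamine receptor genes Drd1 and Drd2. Other GABAergic nuclei had Gad1 or Gad2 and no Slc17a6, and glutamatergic nuclei had Slc17a6, the vesicular glutamate transporter, and neither Gad1 nor Gad2. Striatal-type nuclei were 592 in US+ and 2022 in US-, which is 4.98% and 17.3% of each library, and values without them are given below for all nuclei together. Other GABAergic nuclei were 6293 in US+ and 6523 in US-, and glutamatergic nuclei 928 in US+ and 734 in US-. The summed level of 9 striatal projection neuron markers, none of them used in the gate, was 3169 CPM (UMIs per 1000000 UMIs of the class) in US+ striatal-type nuclei and 3544 CPM in US-. In other GABAergic nuclei it was 1164 CPM in US+, against 1384 CPM in US-, and in glutamatergic nuclei 1101 CPM in US+, against 1154 CPM in US-. Nuclei gated by astrocyte genes, which took in 33.1% of the US+ and 35.3% of the US- striatal-type nuclei, held it at 3381 CPM in US+, against 4106 CPM in US-. Rarb itself, used in the gate, was at 1097 CPM in US+, against 1409 CPM in US- of the same class.

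Promoters of Fos, Fosb and Junb, the 3 members described above as immediate early genes, are shown because all 3 were higher in US+ striatal-type and other GABAergic nuclei. Each run is the 250 bases before the RefSeq start site on GRCm38.p6, 5′ to 3′ on the gene's strand, with the capitals marking TGACG, the core of a cyclic AMP response element, searched on both strands.
Fos, chr12:85473640-85473889, plus strand: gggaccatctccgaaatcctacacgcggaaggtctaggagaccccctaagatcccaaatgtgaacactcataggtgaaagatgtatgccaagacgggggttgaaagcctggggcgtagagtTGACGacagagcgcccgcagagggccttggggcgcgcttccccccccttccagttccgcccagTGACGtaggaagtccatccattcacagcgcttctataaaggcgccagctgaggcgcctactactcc
Fosb, chr7:19310046-19310295, minus strand: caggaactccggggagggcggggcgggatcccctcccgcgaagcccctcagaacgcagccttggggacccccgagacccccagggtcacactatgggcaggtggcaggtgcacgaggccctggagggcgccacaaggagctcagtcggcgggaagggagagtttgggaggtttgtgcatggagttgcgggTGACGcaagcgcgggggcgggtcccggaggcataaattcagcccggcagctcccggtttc
Junb, chr8:84978749-84978998, minus strand: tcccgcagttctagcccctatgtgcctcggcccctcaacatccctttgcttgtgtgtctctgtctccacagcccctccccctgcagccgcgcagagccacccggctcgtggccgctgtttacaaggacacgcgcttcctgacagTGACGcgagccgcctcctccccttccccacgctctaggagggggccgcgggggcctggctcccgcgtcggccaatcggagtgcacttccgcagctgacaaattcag
The Fos window held TGACG from -129 to -125 and from -66 to -62 of the start site, with TATAAA from -33 to -28. The Fosb window held TGACG from -60 to -56, and the Junb window from -106 to -102. This core was present in the windows of 4 of the 7 members (Fos, Fosb, Junb and Atf3) and in 17.9% of 27025 RefSeq promoter windows of this length. The Jund window (chr8:70697489-70697738) does not adjoin the Jund start at 70698949 in the GENCODE M21 annotation used below. It therefore does not describe the bases just before that start. The Fosl2 (chr5:32136222-32136471) and Atf3 (chr1:191183334-191183583) windows lie inside the annotated spans of those genes. The whole element TGACGTCA (1.62% of windows, which overlaps TGACG), the AP-1 site TGACTCA on either strand (4.43%) and the CArG box bound by serum response factor (1.40%) were in none of the 7 windows, which says only that these letters are not in these 250 bases.

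In the GENCODE M21 annotation of the same build, Fos lies at chr12:85473890-85477273 and Fosb at chr7:19302696-19310051, with 4 exons in each principal transcript. Fosl2 (chr5:32135801-32157842) and Atf3 (chr1:191170296-191218039) likewise have 4 exons. Jun (chr4:95049034-95052222), Junb (chr8:84974484-84978718) and Jund (chr8:70698949-70700616) have a single exon. Jun overlaps the antisense gene Junos, Junb overlaps Prdx2, Jund overlaps the antisense gene Gm11175, and Atf3 overlaps Gm24748, each on the opposite strand. The methods name Cell Ranger 6.1.1 with default parameters and do not spell out how strand was handled. Sharing of reads within these 4 pairs was not tested.

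Of the 3 classes, AP-1 levels differed most between the libraries in striatal-type nuclei, and there most for the Fos-family members. Nuclei gated by astrocyte genes, which share nuclei with that class, also differed. Their US+ over US- ratios of CPM were 49.1 for Fosb, 12.8 for Fos, 13.0 for Fosl2, 5.15 for Jun, 4.91 for Junb and 1.27 for Jund. A call was made where the US+ over US- ratio of CPM was at least 1.5 with at least 50 UMIs over both libraries. In striatal-type nuclei, 5 of the 6 members with enough UMIs were at least 1.5-fold higher in US+ (Fos, Fosb, Fosl2, Jun and Junb), where 6.38% of 14680 genes passed the same fold. The member median was a ratio of 7.22, and the median over all genes 0.955. No member was lower by that fold, against 8.88% of genes.

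Fosb, which encodes FosB and the stable truncated form ΔFosB, was at 55.4 CPM in US+ striatal-type nuclei (410 UMIs), against 0.825 CPM in US- (18 UMIs). The ratio was 67.1 (42.0 to 114), the highest of the 14680 genes tested in the class. Fos was at 30.4 CPM in US+ (225 UMIs), against 2.34 CPM in US- (51 UMIs), a ratio of 13.0 (9.56 to 18.0) that ranked 7. Fosl2 was at 21.9 CPM in US+, against 2.29 CPM in US-, with a ratio of 9.55 (6.92 to 13.4). The 3 Fos-family genes thus stood far outside the range of most genes of the class, and their intervals did not reach the 1.5-fold line. Thinning moved the sizes but not the calls, since the Fosb ratio was 119 at 2000 UMIs per nucleus and 38.9 at 1000, and at 1000 the Fos ratio was 39.5 and the Fosl2 ratio 18.3.

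The Jun-family genes differed less and not alike. Junb, a partner that can restrain Jun, was at 81.5 CPM in US+ striatal-type nuclei, against 16.7 CPM in US-, a ratio of 4.88 (4.28 to 5.58). Jun was at 13.8 CPM in US+, against 3.67 CPM in US-, a ratio of 3.76 (2.78 to 5.10). Jund was at 12.6 CPM in US+, against 11.4 CPM in US-, a ratio of 1.11 (0.861 to 1.41) that lay past neither threshold. Thinned to 1000 UMIs per nucleus, Jund had a ratio of 1.59 in this class, past the fold but on 13 UMIs in US+ and 28 in US-. Junb was already well above 0 in sham nuclei, where 232 of 2022 striatal-type nuclei held it, while Fosb was found in 14.

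**Figure D1:**
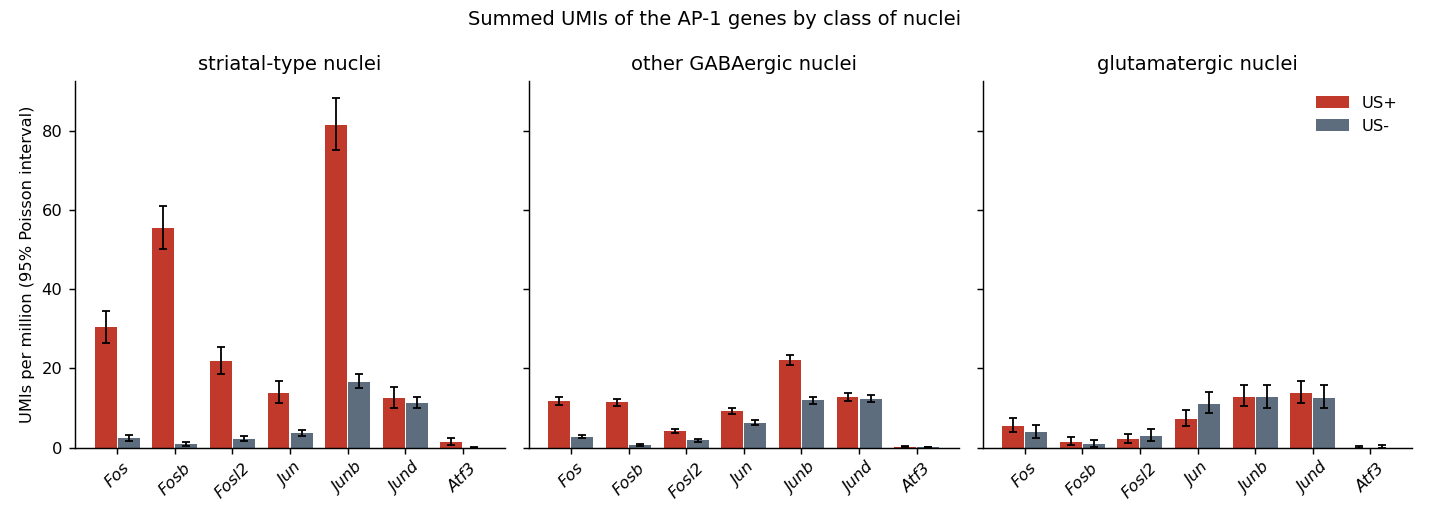
Level of each AP-1 gene in UMIs per 1000000 (CPM) summed over the striatal-type, other GABAergic and glutamatergic nuclei of the US+ (red) and US- (grey) libraries, with exact 95% Poisson intervals as error bars. In striatal-type nuclei Junb reached 81.5 in US+ against 16.7 in US-, while in glutamatergic nuclei the bars of each pair lie close together.

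Atf3 stayed under 50 UMIs in every class, so it was not counted. In striatal-type nuclei it had 10 UMIs in US+ and 0 in US-, which is at least 9.83-fold higher against a floor of 3 UMIs in US-, but 7 of the 10 UMIs were in 1 nucleus. In other GABAergic nuclei it had 14 UMIs in US+ and 6 in US-, a ratio of 2.60 (0.938 to 8.25). It had no UMI in the glutamatergic nuclei of either library.

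In other GABAergic nuclei the same order held at smaller ratios. Fos, Fosb, Fosl2 and Junb, 4 of 6 members, were at least 1.5-fold higher in US+, where 5.53% of 18731 genes were, and none was lower, where 2.82% of genes were. Fosb was at 11.4 CPM in US+ (579 UMIs), against 0.621 CPM in US- (35 UMIs), a ratio of 18.4 (13.1 to 26.7) that ranked 2 in the class. Fos was at 11.7 CPM in US+, against 2.80 CPM in US-, a ratio of 4.18 (3.50 to 5.01). Fosl2 had a ratio of 2.19 (1.73 to 2.80), Junb of 1.85 (1.68 to 2.04) and Jun of 1.47 (1.28 to 1.70), just under the fold. Jund was at 12.9 CPM in US+, against 12.4 CPM in US-, a ratio of 1.04 (0.933 to 1.16). Striatal markers moved with this result, since Rarb was at 106 CPM in US+, against 223 CPM in US- in this class. In nuclei with no UMI of Rarb, Drd1 or Drd2, Fosb had a ratio of 10.7 (6.33 to 19.6), Fos of 2.92 (2.30 to 3.74) and Fosl2 of 1.60 (1.16 to 2.24), while Junb was under the fold at 1.37 (1.19 to 1.57) and Jun was at 1.16 (0.965 to 1.39).

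In glutamatergic nuclei no member was called higher, on far fewer UMIs. None of the 4 members with at least 50 UMIs was 1.5-fold higher, where 3.27% of 13495 genes were, and Jun was lower, as were 1.99% of genes. Fos was at 5.57 CPM in US+ (41 UMIs), against 3.92 CPM in US- (24 UMIs), a ratio of 1.42 with an interval (0.838 to 2.46) that allows a difference of either direction. This value was not stable, since Fos had a ratio of 6.59 on 16 UMIs in US+ and 2 in US- after thinning to 2000 UMIs, and 0.979 under stricter class gates. Fosb had 11 UMIs in US+ and 5 in US-, a ratio of 1.83 (0.586 to 6.72), and Fosl2 had 16 UMIs in US+ and 18 in US- (0.739, 0.353 to 1.54). Thinned to 1000 UMIs, Fosl2 had a ratio of 3.24 on 8 UMIs in US+ and 2 in US-. Junb was at 12.9 CPM in US+, against 12.7 CPM in US- (1.01, 0.743 to 1.38). Jun was at 7.34 CPM in US+, against 11.1 CPM in US-, a ratio of 0.660 (0.453 to 0.958). It no longer passed the fold without the 5% of nuclei with most UMIs (0.696), under stricter gates (0.706), with equal weight for each nucleus (0.736) or thinned to 1000 UMIs (0.810). In nuclei with at least 2 UMIs of Sim1, a transcription factor of paraventricular neurons, Jun had 12 UMIs in US+ and 24 UMIs in US- (0.242, 0.110 to 0.504), against 29 UMIs in each library among the nuclei outside the Adcyap1, Sim1, Esr1 and Tcf7l2 gates (0.905, 0.522 to 1.57).

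**Figure D2:**
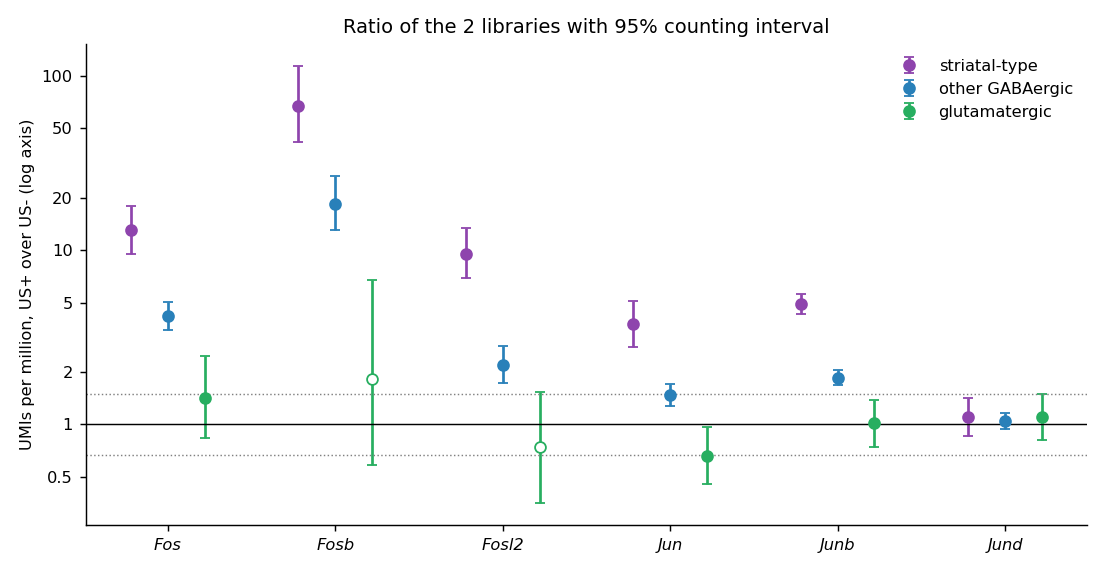
Ratio of CPM, US+ over US-, for 6 AP-1 genes in striatal-type (purple), other GABAergic (blue) and glutamatergic (green) nuclei on a log axis, with 95% counting intervals as bars. Open circles mark ratios from fewer than 50 UMIs, and dotted lines mark the 1.5-fold limits. The striatal-type ratio is well above the others for 5 genes, and Jund lies at 1.04 to 1.11 in all 3 classes.

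The size of the difference between classes was set against counting error by a ratio of ratios. The Fosb ratio was 3.65 times larger in striatal-type than in other GABAergic nuclei (1.98 to 6.94), the Fos ratio 3.11 times (2.17 to 4.52) and the Fosl2 ratio 4.35 times (2.89 to 6.60). For Jun it was 2.55 (1.82 to 3.58), for Junb 2.64 (2.24 to 3.11), and for Jund 1.06 (0.810 to 1.39). Against glutamatergic nuclei the Fosb ratio was 36.7 times larger in striatal-type nuclei (8.92 to 129) and that of Fos 9.16 times (4.82 to 17.1). Of the 6 members so compared, each but Jund had intervals above 1 against both classes. Atf3 had too few UMIs for this comparison.

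In all nuclei together, 5 of 6 members were at least 1.5-fold higher in US+ (7.99% of 20194 genes) and none lower (3.31% of genes). Fosb was at 13.0 CPM in US+, against 0.653 CPM in US-, with the highest ratio of the genes tested, 19.9 (15.5 to 26.0). Fos had 1045 UMIs in US+ and 289 in US-, a ratio of 4.15 (3.64 to 4.74), Fosl2 had a ratio of 2.61 (2.21 to 3.09), Junb of 1.94 (1.81 to 2.08), Jun of 1.56 (1.40 to 1.73) and Jund of 1.07 (0.989 to 1.16). Atf3 had 27 UMIs in US+ and 6 in US-, a ratio of 5.16 (2.09 to 15.3). Without the striatal-type nuclei, Fosb still had a ratio of 15.0 and Fos of 3.37, and Jun was under the fold at 1.34. Jun was also under it with TMM scaling (1.49), with median-ratio scaling (1.48) and with the same mix of classes in both libraries (1.48).

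Detection in single nuclei followed the summed levels. Of 592 US+ striatal-type nuclei, 36.7% held Fosb (32.8 to 40.7), against 0.692% of US- (0.379 to 1.16), exact binomial intervals. Fos was in 22.3% of US+ and 1.68% of US- striatal-type nuclei, and Junb in 48.6% of US+ and 11.5% of US-. In other GABAergic nuclei, Fos was in 5.78% in US+ and 1.78% in US-, and Fosb in 5.07% in US+ and 0.445% in US-. Oligodendrocyte-type nuclei, gated by oligodendrocyte genes, had in US+ a median of 5867 UMIs and Fosb in 4.17% (4 of 96) and Fos in 3.13%, with intervals reaching 10.3% and 8.86%. The median depth was 10507 UMIs in US+ striatal-type nuclei and 7192 UMIs in US+ other GABAergic nuclei. At these unequal depths the US+ shares of Fos and Fosb in other GABAergic nuclei are within the intervals of the oligodendrocyte-type nuclei, and those of striatal-type nuclei are above them. The oligodendrocyte-type nuclei also held Rarb, at 188 CPM in US+, against 338 CPM in US-. After every nucleus was thinned to 2000 UMIs, leaving out shallower nuclei, Fosb was in 10.4% of 587 US+ and 0.0992% of 2017 US- striatal-type nuclei, and in 0 of 79 US+ oligodendrocyte-type nuclei, which allows a share of up to 3.80% (3 of 79). Among US+ other GABAergic nuclei, thinned the same way, Fosb was in 1.99% of 5832 nuclei, and among US+ glutamatergic nuclei in 0.346% of 866. Fos, thinned the same way, was in 5.96% of US+ striatal-type nuclei, in 2.11% of US+ other GABAergic nuclei and in 3.80% of US+ oligodendrocyte-type nuclei (3 of 79, interval 0.790 to 10.7). The thinned Fos shares of both neuronal classes lie inside that interval. It rests on 4 UMIs in those 3 nuclei, so it cannot decide whether the neuronal shares stand above a background. The oligodendrocyte-type nuclei also held 5 neuron marker genes, summed, at 2862 CPM in US+, against 2994 CPM in US+ glutamatergic nuclei.

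In striatal-type nuclei both Drd1 and Drd2 neurons held the difference. With only Drd1, the receptor of direct-pathway neurons, Fosb was at 65.6 CPM in US+ (342 nuclei), against 1.13 CPM in US- (1105 nuclei), a ratio of 58.1 (33.4 to 111). With only Drd2, the receptor of indirect-pathway neurons, it was at 44.8 CPM in US+ (230 nuclei), against 0.453 CPM in US- (825 nuclei), a ratio of 98.9 (37.7 to 368) that rests on 4 UMIs in US-. Fos had nearly the same ratio in both, 13.7 (9.11 to 21.1) with Drd1 only and 13.6 (8.00 to 24.6) with Drd2 only. Junb was at 99.1 CPM in US+, against 17.3 CPM in US- with Drd1 only, and at 63.3 CPM in US+, against 16.0 CPM in US- with Drd2 only. Jund was at 12.4 CPM in US+ with Drd1 only and 12.5 CPM in US+ with Drd2 only. Whether the Drd1 and Drd2 ratios differ was not tested.

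Other GABAergic nuclei varied among themselves. Nuclei with at least 4 UMIs of Foxp2 and none of the earlier gates (529 in US+, 1237 in US-) held Fosb at 64.6 CPM in US+, against 1.63 CPM in US- (39.5, 23.9 to 70.1) and Fos at 45.6 CPM in US+, against 3.06 CPM in US- (14.9, 10.1 to 22.6), which in US+ is as high as in striatal-type nuclei or higher. Junb was there at 73.2 CPM in US+, against 20.1 CPM in US-. In nuclei with Lhx6, a factor of medial ganglionic eminence lineages, Fos was at 15.4 CPM in US+, against 2.43 CPM in US- (6.33, 3.44 to 12.4). In nuclei with Lhx8, Fosb had 9 UMIs in US+ and 0 in US-, at least 6.34-fold higher against the floor, and Junb a ratio of 3.74 (2.43 to 5.84). In nuclei with the oestrogen receptor gene Esr1, Fos was at 3.98 CPM in US+, against 1.45 CPM in US-, and Fosb at 4.29 CPM in US+, against 0.643 CPM in US-. In nuclei with Gal, the galanin gene, Fosb had 28 UMIs in US+ and 0 in US-, at least 4.38-fold higher, and Jun was at 12.7 CPM in US+, against 18.0 CPM in US- (0.704, 0.418 to 1.20). Nuclei with Vip, 77 in US+ and 37 in US-, had no Fosb UMI in either library. The nuclei that passed none of these gates held Fosb at 6.71 CPM in US+, against 0.446 CPM in US- (15.1, 8.21 to 30.7).

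**Figure D3:**
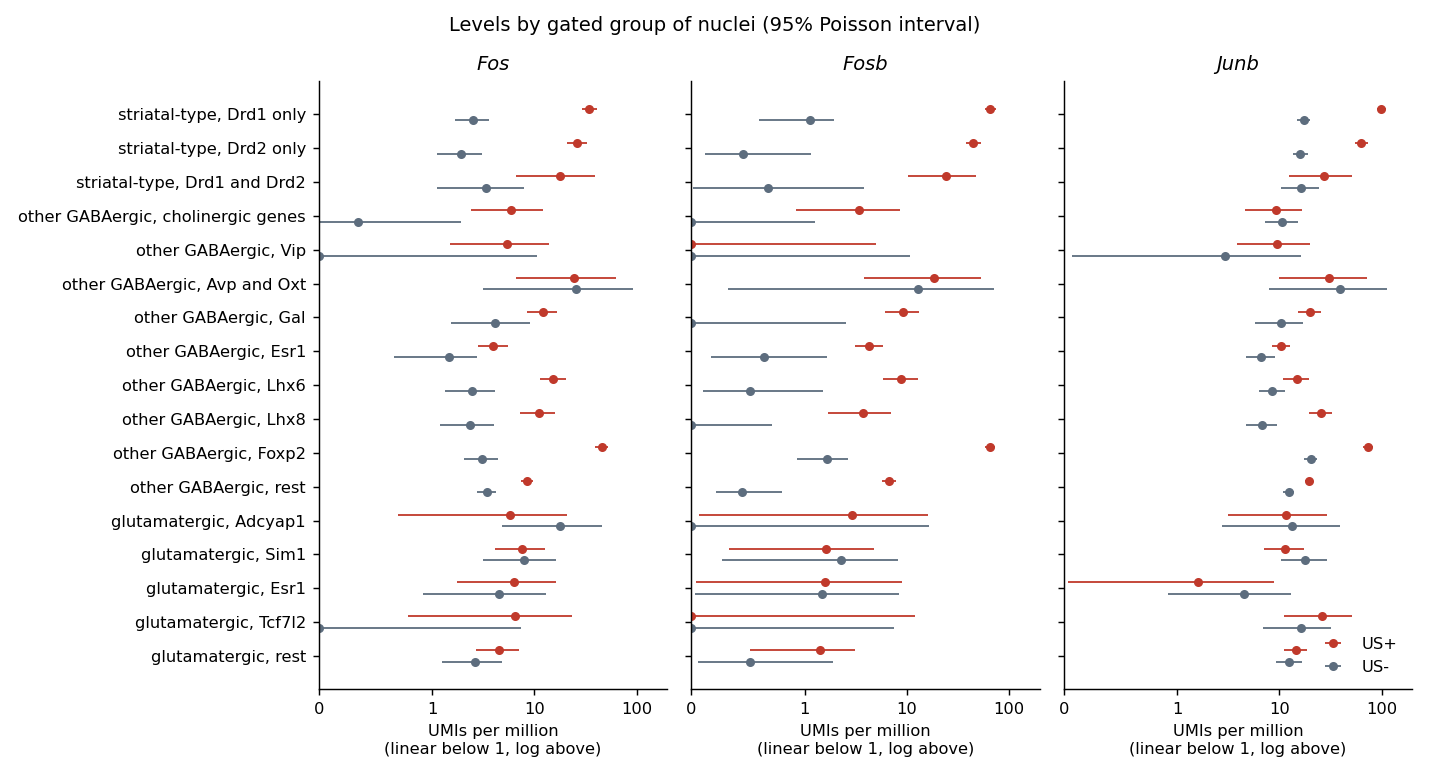
Levels of Fos, Fosb and Junb in CPM, linear below 1 and log above, in the gated groups of striatal-type, other GABAergic and glutamatergic nuclei of US+ (red) and US- (grey), with exact 95% Poisson intervals as bars. The striatal-type groups with only Drd1 or only Drd2 and the Foxp2 group lie farthest to the right in US+, and the intervals of the glutamatergic groups overlap between libraries.

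In striatal-type and other GABAergic nuclei, 3 or more members were seen in the same nucleus more often in US+ than in US-. After thinning to 5000 UMIs, 55.8% of 541 US+ striatal-type nuclei held at least 1 member and 6.28% held 3 or more, against 14.8% and 0.399% of 1756 US- nuclei. In other GABAergic nuclei 3 or more were in 1.93% in US+ and 0.222% in US-, and at least 1 member was in 20.6% in US+ and 14.3% in US-, and in glutamatergic nuclei in 16.9% in US+ and 16.2% in US-. Pairs were set against the product of their shares over a whole class, which takes no account of groups within it. Before thinning, the Foxp2 group (529 of 6293 US+ other GABAergic nuclei) held 207 of 593 Fos UMIs and 293 of 579 Fosb UMIs. The multiples of different classes therefore cannot be set against each other. Fos and Fosb shared 26 US+ striatal-type nuclei, 2.02 times the number that the product of their shares gives, and 65 US+ other GABAergic nuclei, 9.08 times that number. Fos and Junb shared 82 US+ other GABAergic nuclei, 5.36 times the number so expected. In US- other GABAergic nuclei, Fos and Fosb shared 4 nuclei, which is 19.3 times the number so expected (0.207), so the excess over expectation was not particular to US+. Not every pair exceeded it. In US+ striatal-type nuclei the multiple was 1.06 for Fos with Fosl2, 1.07 for Fosb with Jun and 1.04 for Fosl2 with Jun. Jund was below 1 with each of Fos (0.604), Fosb (0.886), Fosl2 (0.690), Jun (0.522) and Junb (0.937), on 1 to 8 shared nuclei. These multiples were not stable. Thinned to 3000 UMIs, Jund was at 2.43 with Fos, 2.02 with Fosl2, 3.17 with Jun, 1.71 with Junb and 0.828 with Fosb. At that depth Fos with Fosl2 was at 1.62, Fosb with Jun at 0.864 and Fosl2 with Jun at 1.41.

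**Figure D4:**
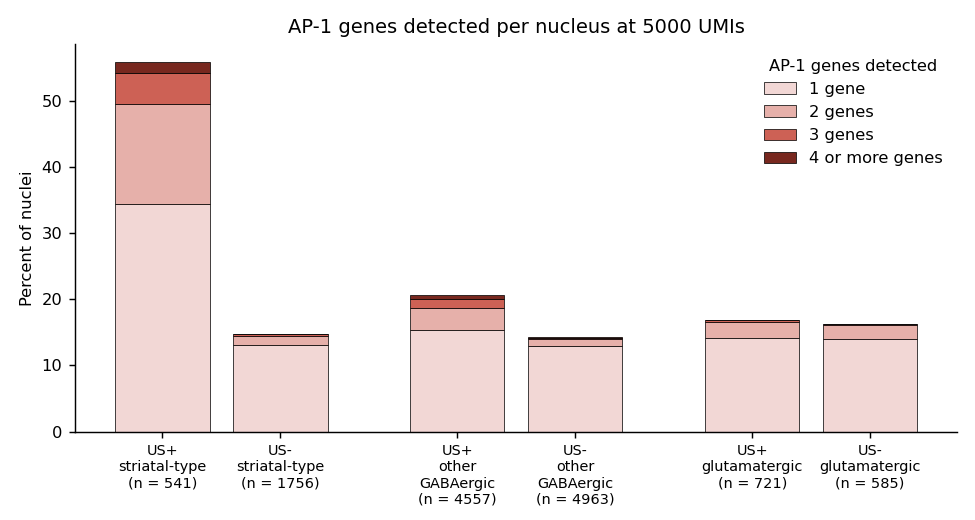
Percent of nuclei of each class and library in which 1, 2, 3 or at least 4 of the 7 AP-1 genes were detected after thinning to 5000 UMIs, with n under each bar. Bars reach 55.8% in US+ and 14.8% in US- striatal-type nuclei.

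The genes most like Fos and Fosb were ranked by Pearson's r of log2(CPM + 1) over 31 gated groups of both libraries, among 14217 genes with at least 500 UMIs. The groups share libraries, depth and cell classes, so r is a description. For Fos the highest were Fosb (0.888), the neuronal activity factor Npas4 (0.841), Gadd45g (0.802), Btg2 (0.795) and Gm47423 (0.771). For Fosb they were Npas4 (0.930), Fos (0.888), the BDNF receptor gene Ntrk2 (0.877), 1700016P03Rik (0.861) and the synaptic gene Arc (0.853). Npas4 was at 180 CPM in US+ striatal-type nuclei, against 6.92 CPM in US- (ratio 26.0), and Arc at 43.0 CPM in US+, against 3.80 CPM in US-.

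Genes around the AP-1 family were counted by the same call. Of 13 related basic leucine zipper genes, 8 had enough UMIs in striatal-type nuclei, none passed the fold, and the median ratio was 0.993. With 6.38% of all genes higher and 8.88% lower in this class, 0 of 8 is near the background. The median was 0.980 in other GABAergic and 0.991 in glutamatergic nuclei, again with none past the fold. Of 12 upstream genes, 1 was higher and 1 lower in striatal-type nuclei, which is near the same background. Srf, the serum response factor that drives Fos transcription, was at 6.35 CPM in US+, against 3.02 CPM in US- (2.10, 1.41 to 3.10), and its partner gene Elk1 was at 8.65 CPM in US+, against 13.9 CPM in US- (0.621, 0.466 to 0.815). No upstream gene passed the fold in other GABAergic or glutamatergic nuclei. Over all genes, 5.53% were higher and 2.82% lower in other GABAergic nuclei, and 3.27% and 1.99% in glutamatergic nuclei. Counts of 0 there are near the background for both lists.

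Of 12 later activity genes with reported Fos or AP-1 dependence, 7 were at least 1.5-fold higher in US+ striatal-type nuclei, 5 in other GABAergic nuclei and 1 of 11 in glutamatergic nuclei, with median ratios of 1.68, 1.21 and 0.989. The shares over all genes were 6.38% in striatal-type, 5.53% in other GABAergic and 3.27% in glutamatergic nuclei, and the glutamatergic count is a single gene. Rgs2, which shortens signals of Gq-coupled receptors, was at 155 CPM in US+ striatal-type nuclei, against 17.3 CPM in US- (8.98, 7.98 to 10.1). Nptx2, a secreted synaptic pentraxin, was at 7.43 CPM in US+, against 1.28 CPM in US- (5.79, 3.61 to 9.48), and had a ratio of 2.49 (1.30 to 5.09) in glutamatergic nuclei. The neuropeptide-processing genes Scg2 and Pcsk1 had striatal-type ratios of 2.39 and 2.32, while Bdnf, the neurotrophin gene, had 0.932 (0.602 to 1.41). Among 10 genes that respond to tissue handling and heat, the 5 tested in striatal-type nuclei held none past the fold, nor did the 7 in other GABAergic nuclei. By the shares over all genes, these counts are near the background. In glutamatergic nuclei Hsph1 was lower (0.540), as were 1.99% of genes. The summed level of the 10 genes had a ratio of 1.14 (1.07 to 1.21) in striatal-type nuclei. It was 1.09 (1.07 to 1.12) in other GABAergic and 0.907 (0.844 to 0.975) in glutamatergic nuclei.

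Markers of other cell types moved with the libraries. The summed level of 6 oligodendrocyte genes was 104 CPM in all US+ nuclei and 57.7 CPM in US-, and in striatal-type nuclei 79.4 CPM in US+, against 42.2 CPM in US-. Slc17a6 was at 12.4 CPM in US+, against 5.41 CPM in US- striatal-type nuclei. Their part in the AP-1 results was not tested. Without oligodendrocyte-type nuclei and those of the astrocyte gate, the striatal-type ratio was 9.53 for Fos and 6.78 for Fosl2, and the same 5 members were at least 1.5-fold higher. By depth, Fosb had a ratio of 19.2 (14.7 to 25.4) in nuclei of 5000 UMIs or more and 25.8 (11.6 to 71.4) in those of 1000 to under 5000. In nuclei under 1000 UMIs, Junb was at 77.7 CPM in US+ (1281 nuclei), against 15.8 CPM in US- (364 nuclei).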

How the data were processed

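Preoptic area (POA) nuclei of US+ and US- mice were profiled by 10x 3′ single-nucleus RNA-sequencing, 1 library per condition. Cell Ranger 6.1.1 (mm10, default parameters) was run by the authors, and the deposited values are raw UMI counts for each nucleus. Their methods add a normalization of the data to the least saturated sample. Whether introns were counted is not given in the sources used here. Nuclei outside 200 to 7500 genes or above 5% mitochondrial UMIs were left out, after which 86741549 UMIs remained in US+ and 99537709 in US-. No doublet caller was run. UMIs were summed per class and library and divided by the class total. Exact Poisson, binomial and conditional intervals (95%) cover counting error only, since nuclei are not replicates. A ratio was called at 1.5-fold with at least 50 UMIs over both libraries, and 0 counts were set against a floor of 3 UMIs. Thinning was hypergeometric. Calls and intervals were run on simulated Poisson counts, the model that the intervals assume. That run does not cover clustering of UMIs within nuclei or variation between mice. Alternatives included TMM scaling (edgeR 4.0.16) and median-ratio scaling, other filters, gates and depths. All 7 members are described. Other lists are counted whole, with examples picked after their values were seen. Members and lists were chosen with earlier results of these data known. Genes ranked as most like Fos and Fosb had at least 500 UMIs. Python 3.11.15, NumPy 2.4.6, SciPy 1.17.1 and R 4.3.3 were used.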

Additional observations from a re-analysis of the deposited data

Results flagged for a closer look

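Jun and Fosl2 pointed in opposite directions between classes, which was not tested over replicates. Jun was higher in US+ than in US- striatal-type nuclei (ratio 3.76) and other GABAergic nuclei (1.47) and lower in US+ than in US- glutamatergic nuclei (0.660, interval below 1). Fosl2 had ratios of 9.55 in striatal-type and 2.19 in other GABAergic nuclei and 0.739 in glutamatergic nuclei, where its 16 UMIs in US+ and 18 in US- leave an interval (0.353 to 1.54) that includes 1. The Fosl2 direction there was not stable, with a ratio of 3.24 after thinning to 1000 UMIs (8 UMIs in US+ and 2 in US-).

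Some AP-1 members were also higher in US+ than in US- among nuclei that fall in none of the 3 classes. In nuclei with both Slc17a6 and Gad1 or Gad2, 909 in US+ and 605 in US-, the US+ over US- ratio was 14.8 for Fosb (68 UMIs in US+ and 3 in US-), 3.05 for Fosl2, 2.24 for Fos and 2.03 for Junb. In nuclei with neither transmitter marker, 3177 in US+ with a median of 2640 UMIs and 1779 in US- with a median of 4291 UMIs, it was 11.7 for Fosb (61 UMIs in US+ and 4 in US-) and 2.47 for Fos. There Fosl2 (1.33), Jun (1.38), Junb (1.19) and Jund (0.941) had intervals that include 1, as did Jun (1.26) and Jund (1.31) in nuclei with both. The share of all genes past the fold is not given for these groups. Ranked by ratio among 14036 genes in nuclei with both, Fosb was 1, Fosl2 19, Fos 50, Junb 89, Jund 1065 and Jun 1334. Among 14970 genes in nuclei with neither, Fosb was 6, Fos 113, Jun 1242, Fosl2 1463, Junb 2768 and Jund 10429.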

How the results depend on the processing

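The number of members at least 1.5-fold higher was 4 to 6 in all nuclei, 5 to 6 in striatal-type and 3 to 5 in other GABAergic nuclei under the alternatives, where without nuclei with Rarb, Drd1 or Drd2 it was 3 in other GABAergic nuclei. In glutamatergic nuclei the count was 0 as reported and 1 with equal weight for each nucleus (Fos) and with no minimum of UMIs (Fosb). It was also 1 with nuclei thinned to 2000 UMIs (Fos, 16 UMIs in US+ and 2 in US-) and to 1000 UMIs (Jund, 17 UMIs in US+ and 9 in US-). For thinned nuclei the minimum of 50 UMIs was applied to the counts before thinning. The excess of the striatal-type over the other GABAergic ratio was 12.2 for Fos after thinning to 1000 UMIs, and for Junb 2.19 with no filter on nuclei, 3.57 without nuclei with Rarb, Drd1 or Drd2 and 3.17 without nuclei with Foxp2, against 3.11 and 2.64 as reported; the cause was not tested. The thinned Fos excess rests on 23 UMIs in US+ and 2 in US- striatal-type nuclei. Leaving out nuclei with Rarb, Drd1 or Drd2, nuclei with Foxp2, striatal-type nuclei, and nuclei with Aqp4 and Gja1 were chosen after seeing the data. Of 330 single-gene ratios under the alternatives, 288 stayed within the counting interval of the reported value, 42 did not, and 0 called ratios changed direction. The uncalled glutamatergic Fosl2 ratio was 0.739 as reported and 3.24 after thinning to 1000 UMIs. The uncalled Jund ratio in all nuclei was 1.07 as reported, 0.943 after thinning to 2000 UMIs and 1.27 with equal weight for each nucleus. The astrocyte gate with Slc4a4 also took in 33.1% of US+ and 35.3% of US- striatal-type nuclei; without oligodendrocyte-type nuclei and its nuclei the striatal-type Fos ratio was 9.53. Stricter class gates could give no value for all nuclei. Leaving out a library was not possible, and no paired analysis was possible because each condition has 1 library. Depth limits the glutamatergic Fosb and Fosl2 ratios and all Atf3 values.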
